A study of Saccharomyces cerevisiae with 2 samples.

Results

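The genes described are those of the cytosolic ribosomal proteins of budding yeast and the A and B gene pairs that encode many of them. They were taken as every probe set named in the array annotation for a single gene with an RPL or RPS symbol (a number with or without A or B) or for RPP0, RPP1A, RPP1B, RPP2A or RPP2B. This gave 127 genes of 5449 measured, 75 of the large subunit and 52 of the small subunit. The RefSeq gene table lists 137 such genes, and 10 of them (among them RPL1A, RPL7B, RPL35B, RPL41B, RPL42A, RPS4A, RPS6A and RPS30B) had no probe set named for them and were not analysed here.

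The study cultured wild-type cells of the strain BY4742, haploid yeast of mating type alpha with the markers his3Δ1, leu2Δ0, lys2Δ0 and ura3Δ0, in 2 liquid media that shared 1% yeast extract and peptone. DR (dietary restriction) medium held 0.5% glucose and AL (ad libitum) medium held 2.0% glucose, and both cultures grew from a density of 0.01 for 12 hours at 30°C to a density between 0.85 and 0.99. Total RNA of each culture was hybridized to 1 Affymetrix GeneChip Yeast Genome 2.0 array. With 1 array per condition there is no replicate and no estimate of error, so no test was run. Each value is therefore given as the signal on each array, a linear intensity, and as the ratio of the DR-labelled array over the AL-labelled array.

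A ribosome is built from ribosomal RNA and one copy of nearly every ribosomal protein, so a growing cell makes these proteins in matched amounts. In budding yeast most of the proteins are encoded by a pair of genes that were kept after an ancient duplication of the genome, and the proteins of a pair are identical or nearly so. Their genes are transcribed together under the control of the factors Rap1, Fhl1, Ifh1 and Sfp1, which respond to nutrients through the TORC1 and protein kinase A pathways. Ribosomal protein messages are among the most abundant of a cell in rich medium.

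Most ribosomal protein genes had a higher signal on the DR-labelled array. This direction is the opposite of the one the study gives for ribosomal genes under DR. The labels were kept as deposited and arrays are named by them, and if they were exchanged every log2 ratio below would change its sign. Of the 127 genes, 90 were over 2-fold higher on that array, where 20.5% of all genes were, and 1 was over 2-fold higher on the AL-labelled array, where 24.3% of all genes were. The other 36 lay within 2-fold, and the ratio was over 1 for 120 genes and under 1 for 7. Of all 5449 genes, 2487 had a ratio over 1 and 2959 under 1. The median log2 ratio was 1.63 for the ribosomal protein genes, between quartiles of 0.89 and 2.46, and −0.12 for all genes. At a threshold of 3-fold, 68 were still higher on the DR-labelled array, against 11.5% of all genes.

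**Figure D1:**
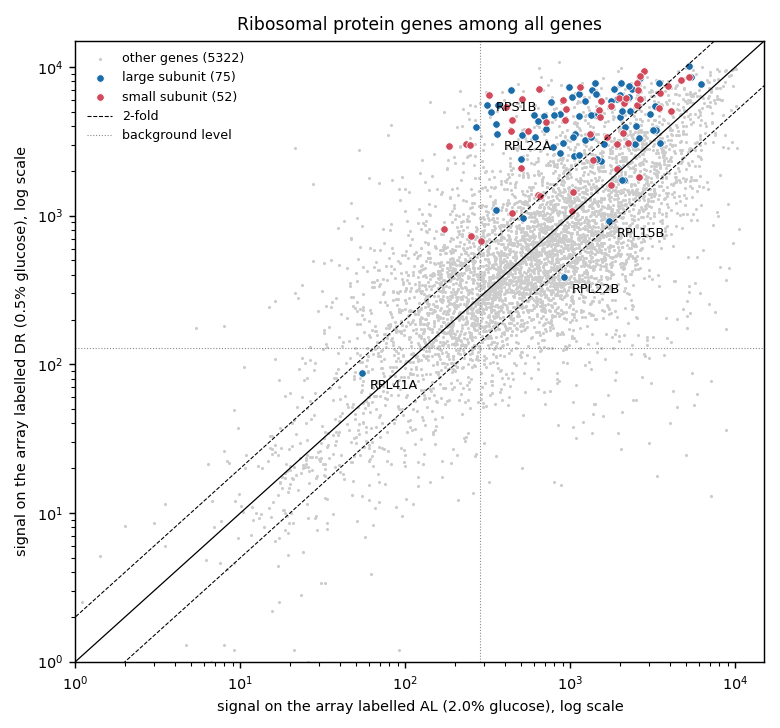
Signal of each gene on the DR-labelled array (vertical axis) against the AL-labelled array (horizontal axis), both on log scales, with large subunit genes in blue, small subunit genes in red and all other genes in grey. Of the 127 ribosomal protein genes, 90 lie above the upper dashed line (2-fold higher on the DR-labelled array) and 1, RPL22B, lies below the lower one.

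Most of these signals lay well above those of absent transcripts. The deleted genes LEU2, LYS2 and URA3 reached at most 24.6 on either array, and the a-specific genes, which alpha cells keep silent, reached at most 129.4 on the DR-labelled array and 281.6 on the AL-labelled array (STE6). These maxima were taken as background. Of the 4 alpha-specific genes, MF(ALPHA)1, MF(ALPHA)2, STE3 and SAG1 all had at least 5174 on the DR-labelled array, and MF(ALPHA)2 had 222.6 on the AL-labelled array, under background. RPL41A was the only ribosomal protein gene under background on both arrays, and 6 others were under it on the AL-labelled array alone. The bacterial and phage RNAs added at hybridization differed little between the arrays, with a median log2 ratio of −0.16 over 27 probe sets (range −0.34 to 0.13). The ratio of the 5′ to the 3′ probe set of ACT1, a measure of RNA integrity, was 0.850 on the DR-labelled array and 0.680 on the AL-labelled array. Of 17 control probe sets for the yeast's own ribosomal RNA, 9 were over 2-fold higher on the DR-labelled array, 1 on the AL-labelled array and 7 lay within 2-fold. Their part in the ratios of the ribosomal protein genes was not tested. Signals describe each message's share of the RNA hybridized, and the amount of RNA per cell was not measured.

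Of the 75 large subunit genes 53 were over 2-fold higher on the DR-labelled array and 1 on the AL-labelled array, with a median log2 ratio of 1.68. Of the 52 small subunit genes 37 were higher on the DR-labelled array and 0 on the AL-labelled array, with a median of 1.54. The medians differed by 0.15, and by 0.26 without probe sets whose names mark possible matches to several transcripts, a difference that 1 array per condition cannot test. Of the genes for proteins that also occur in bacterial ribosomes, 36 of 50 were over 2-fold higher on the DR-labelled array (median 1.68), and of those for proteins that do not, 54 of 77 (median 1.62). None of the 50 genes of the first kind had a ratio under 1, and 7 of the 77 of the second kind did. Of all 5449 genes 2959 did.

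**Figure D2:**
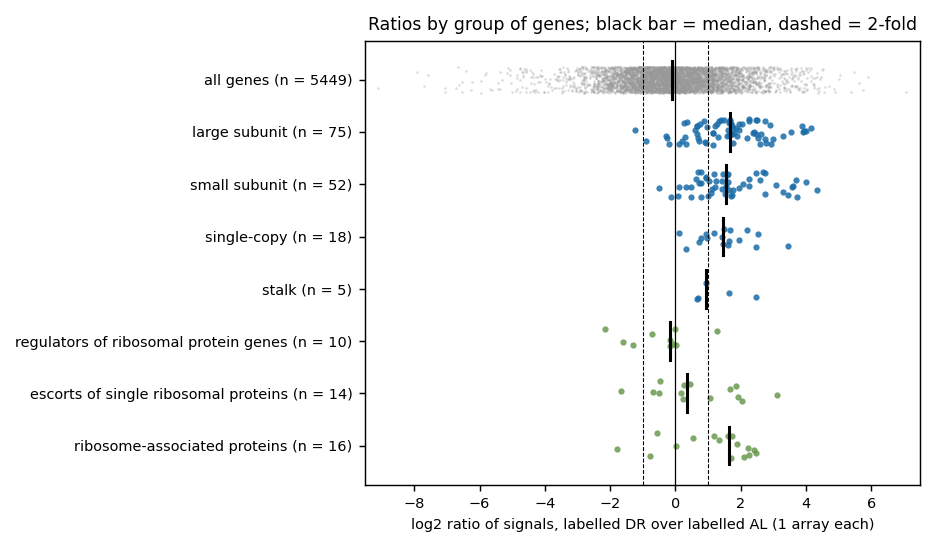
Log2 ratio of signals (labelled DR over labelled AL) for each gene, by group, 1 point per gene, with the median as a black bar and 2-fold as dashed lines. The large and small subunit medians lie at 1.68 and 1.54, the stalk at 0.92, the regulators at −0.16 and all genes at −0.12.

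The highest ratios came from both subunits. RPS1B, which encodes a small subunit protein near the site where messenger RNA leaves the ribosome, had a signal of 6478 on the DR-labelled array and 319.7 on the AL-labelled array, a 20.3-fold difference. Its partner RPS1A had 3022 and 234.2 (12.9-fold). The RPS1A signal on the AL-labelled array lay under background, and the ratio was 10.7 once this signal was set to the background level. RPL24A, whose protein forms a bridge between the subunits, had 5517 and 313.8 (17.6-fold). RPL8A had 7030 and 439.3 as the mean of 2 probe sets (16.0-fold). RPS26B, whose protein lies where messenger RNA leaves the small subunit, had 2921 and 184.1 (15.9-fold), which became 10.4 with the lower signal raised to background. RPL40B, which encodes a ribosomal protein fused to ubiquitin, had 5518 and 363.4 (15.2-fold). RPL17A, which lines the tunnel of the growing protein chain, had 4963 and 328.2 (15.1-fold), and RPL6B had 3940 and 266.6 (14.8-fold, or 14.0 with the lower signal raised to background). RPS0A, of the small subunit, followed with 5348 and 408.3 (13.1-fold).

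At the other end 7 genes had a ratio under 1. RPL22B had 385.4 on the DR-labelled array and 917.0 on the AL-labelled array, a 2.38-fold difference in favour of the AL-labelled array. Rpl22 protein is known to hold back splicing of the RPL22B transcript. RPL15B had 923.1 and 1723 (1.87-fold higher on the AL-labelled array), and RPS25B had 1827 and 2611 (1.43-fold). The other 4, RPL36A, RPL43B, RPL14B and RPS27A, lay between 1.11-fold and 1.22-fold higher on the AL-labelled array. Just above a ratio of 1 stood RPS22B, with 1071 and 1017. All of these genes have an A or B partner, and 109 of the 127 ribosomal protein genes carry an A or B name. The partners of the 7 genes with a ratio under 1 had ratios from 1.72 (RPS25A) to 9.88 (RPL22A).

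For the 18 single-copy genes no partner could share the probe set. All 18 had a ratio over 1, as did 120 of the 127 ribosomal protein genes and 2487 of all 5449 genes. Of the 18, 12 were over 2-fold higher on the DR-labelled array (median log2 ratio 1.46, range 0.11 to 3.45). RPS3, which lies where messenger RNA enters the small subunit, had the highest ratio with 7083 and 648.8 (10.9-fold). RPL25, the docking site of the signal recognition particle at the tunnel exit, followed with 6542 and 1132 (5.78-fold). RPL30, whose protein represses splicing of its own transcript, had 6562 and 1428 (4.59-fold), and RPL5, which binds the smallest ribosomal RNA, had 7806 and 2035 (3.84-fold). The lowest ratios were those of RPL29, with 2085 and 1934 (1.08-fold), and RPL10, a protein that joins the large subunit late in its assembly, with 7722 and 6223 (1.24-fold). RPS31, the ubiquitin fusion of the small subunit, had 8550 and 5201 (1.64-fold), RPS2 had 8112 and 4688 (1.73-fold), RPS20 had 7440 and 3888 (1.91-fold), and RPL3, which lies close to the catalytic centre, had 10177 and 5226 (1.95-fold). These 6 single-copy genes lay within 2-fold. RPS12, RPS13, RPS15, RPL32, RPL38, RPL39 and RPL28 lay between 2.29-fold and 3.20-fold, and the stalk gene RPP0 was 5.51-fold higher.

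The stalk of the large subunit, which recruits the translation factors that hydrolyse GTP, had a lower median ratio than either subunit. Its base protein RPP0, which is essential, had 7786 and 1412 (5.51-fold). The acidic proteins that hang on it are encoded by RPP1A, RPP1B, RPP2A and RPP2B. RPP2A had 5428 and 1760 (3.08-fold), and the other 3 lay within 2-fold, RPP1A with 3024 and 1594 (1.90-fold), RPP2B with 4857 and 3026 (1.61-fold) and RPP1B with 3993 and 2508 (1.59-fold). The median log2 ratio of the 5 stalk genes was 0.92. The genes whose proteins bind the smallest ribosomal RNA, RPL5, RPL11A and RPL11B, had a median of 1.21, with 2 of 3 over 2-fold higher on the DR-labelled array. The 11 genes for proteins around the tunnel exit (RPL17, RPL19, RPL25, RPL26, RPL31, RPL35 and RPL39), a group drawn after the values had been seen, had a median of 2.05, with 9 of 11 over 2-fold higher on the DR-labelled array, beside 90 of the 127 ribosomal protein genes. The ubiquitin fusions spread widely, with RPL40A at 5867 and 1752 (3.35-fold) between RPS31 and RPL40B.

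Both genes were measured for 50 pairs, 29 of the large and 21 of the small subunit. In 27 pairs both genes were over 2-fold higher on the DR-labelled array. In 12 pairs the A gene alone was past 2-fold and in 6 the B gene alone, with the partner within 2-fold. In 4 pairs (RPP1, RPS25, RPS27 and RPS29) both genes lay within 2-fold, and in 1 pair, RPL22, the genes were past 2-fold in opposite directions. The A gene had the higher ratio in 29 pairs and the B gene in 21. Across the 50 pairs, which share the same 2 arrays, the log2 ratios of the A and B genes were weakly related (Spearman's rho 0.26, Pearson's r 0.25, a description over genes and not over samples).

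**Figure D3:**
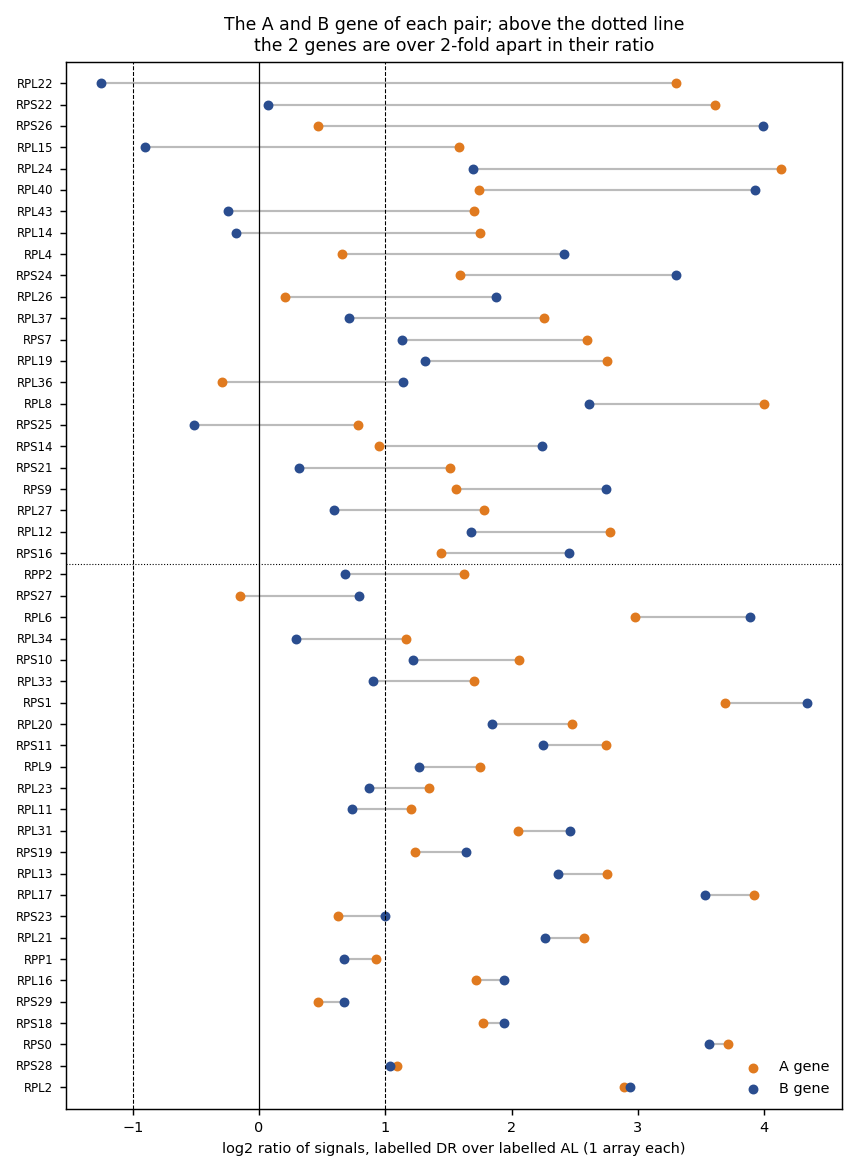
Log2 ratio of signals (labelled DR over labelled AL) of the A gene (orange) and the B gene (blue) of 48 pairs, sorted by their difference. The 23 pairs above the dotted line are more than 2-fold apart in their ratio, with RPL22 at the top, and RPL2, RPS28, RPS0 and RPS18 at the bottom are closest.

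In 25 of the 50 pairs the ratios of the genes were more than 2-fold apart, 14 of them with A and 11 with B higher, and 14 in the large and 11 in the small subunit. The widest was RPL22. RPL22A had 3535 on the DR-labelled array and 357.7 on the AL-labelled array (9.88-fold), and RPL22B, above, ran the other way, so that the ratios differed by 4.56 on the log2 scale. In the RPS22 pair, RPS22A had 2983 and 244.7 (12.2-fold, or 10.6 with the lower signal raised to background) while RPS22B had nearly equal signals, a difference of 3.53. In the RPS26 pair it was the A gene that was nearly level, with RPS26A at 3095 and 2242 (1.38-fold) against 15.9-fold for RPS26B, a difference of 3.52. RPL15A had 7059 and 2356 (log2 ratio 1.58) while RPL15B was lower on the DR-labelled array, a difference of 2.48. RPL24B had 6481 and 2006 (3.23-fold), so that both RPL24 genes were past 2-fold in the same direction and yet 2.44 apart.

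Other pairs more than 2-fold apart combined a gene with a high ratio and a gene within 2-fold. RPL4A, whose protein forms the narrowest part of the tunnel, had 8505 and 5391 (1.58-fold), and RPL4B had 3811 and 712.5 (5.35-fold). The name of the only RPL4A probe set marks possible matches to several transcripts, so its value may hold both genes. RPL26A had 3789 and 3283 (1.15-fold), and RPL26B had 2894 and 787.3 (3.68-fold). RPL37A had 2398 and 502.6 (4.77-fold), and RPL37B had 2390 and 1456 (1.64-fold). None of these 3 pairs had a signal under background. RPS14A had 6707 and 3477 (1.93-fold), and RPS14B, whose transcript the Rps14 protein represses, had 810.7 and 171.1 (4.74-fold). The last signal lay under background, and raised to it gave a ratio of 2.88 for RPS14B. RPL43A had 4803 and 1474 (3.26-fold) against 1745 and 2069 for RPL43B. RPL14A had 3564 and 1060 (3.36-fold) against 3090 and 3512 for RPL14B. RPL36 ran the other way round, with RPL36A at 1727 and 2115 and RPL36B at 5067 and 2298 (2.20-fold). RPS21A had 6199 and 2170 (2.86-fold) against 5031 and 4046 for RPS21B (1.24-fold), and RPL27A had 3092 and 898.3 (3.44-fold) against 2323 and 1540 for RPL27B (1.51-fold). RPS25A had 3607 and 2095 (1.72-fold), and together with RPS25B it was the only pair more than 2-fold apart in which neither gene was past 2-fold.

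In the rest of the 25 pairs both genes were past 2-fold on the DR-labelled array and differed in degree. Among them, the B gene had the higher ratio in RPL40, in RPS24 (3.01-fold for RPS24A and 9.84-fold for RPS24B), in RPS9 (2.95-fold and 6.73-fold, or 2.60-fold for RPS9A with its signal of 248.8 on the AL-labelled array raised to background) and in RPS16 (2.71-fold and 5.49-fold). The A gene had the higher ratio in RPL24, in RPS7 (6.04-fold for RPS7A and 2.19-fold for RPS7B), in RPL19 (6.75-fold and 2.48-fold), in RPL8 (16.0-fold and 6.13-fold) and in RPL12 (6.87-fold and 3.21-fold). Neither copy was thus the higher one throughout.

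The closest pairs covered a wide range of ratios. RPL2A had 7287 and 984.3 (7.40-fold) and RPL2B 5823 and 761.8 (7.64-fold). RPS28A had 1365 and 638.5 (2.14-fold) and RPS28B 1346 and 655.8 (2.05-fold). RPS0A and RPS0B stood at 13.1-fold and 11.9-fold, the latter with 6039 and 509.3, and RPS18A and RPS18B at 3.42-fold and 3.83-fold. The A and B ratios of these 4 pairs were apart by 0.05, 0.06, 0.14 and 0.16 on the log2 scale.

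Genes with 2 probe sets showed how far 2 probe sets of a gene can differ, which does not cover the spread between cultures or arrays. Each of the 20 ribosomal protein genes with 2 probe sets had a plain one (name ending in _at) and one whose name marks probes that can match several transcripts (_s_at for 14 genes and _x_at for 6). The second kind may also match the partner gene. A difference within a gene can then hold the partner's signal besides the spread between probes. The log2 ratios of the 2 probe sets differed by a median of 0.61 and at most by 2.44, and 5 of the 20 genes were more than 2-fold apart. The widest difference involved a signal under background and became 1.69 with this signal raised to it, a choice added after the values were seen. The median difference between the genes of a pair was 0.98. In this comparison 33 of the 50 pairs were further apart than the median within a gene. Only 5 pairs were further apart than the largest difference within a gene, or 10 with signals raised to background. Of these 5, RPL24 passed it by a negligible margin (2.4442 beside 2.4441). For the 14 genes with an _s_at probe set the median within a gene was 0.81. The _x_at probe sets differed from the plain ones by at most 0.29, and all wider differences were those of _s_at probe sets.

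**Figure D4:**
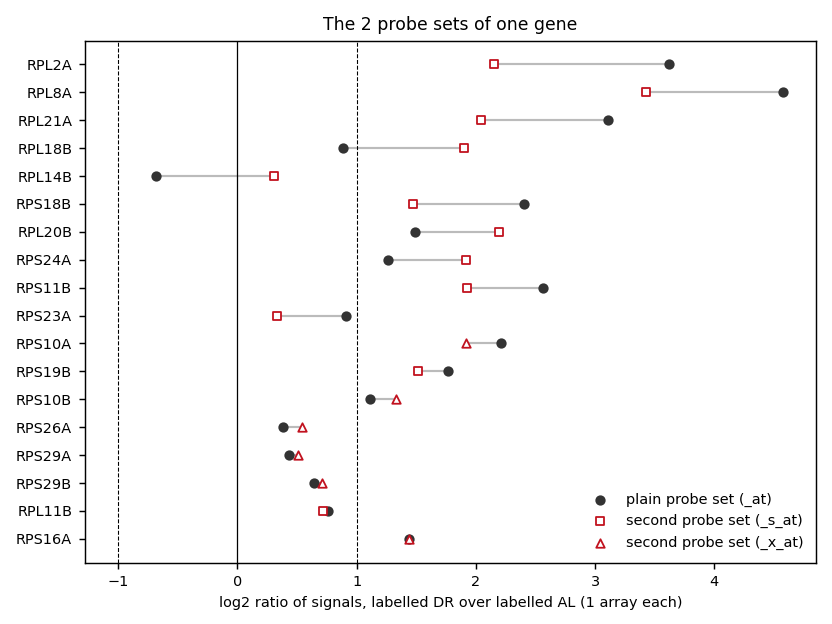
Log2 ratio of signals (labelled DR over labelled AL) of the 2 probe sets of each of 18 genes, the plain one in black and the second one in red (squares _s_at, triangles _x_at). RPL2A, RPL8A, RPL21A and RPL18B at the top are more than 2-fold apart, and the 6 genes with an _x_at probe set are apart by at most 0.29.

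RPL8A had 7330 and 307.2 (23.9-fold) with the plain and 6742 and 628.3 (10.7-fold) with the _s_at probe set. RPL2A had 6790 and 551.5 (12.3-fold) and 7821 and 1757 (4.45-fold), so the closeness of the RPL2 pair rests on the mean of these. With plain probe sets alone the RPL2 genes stood at 12.3-fold and 7.64-fold. RPL21A had 3865 and 448.4 (8.62-fold) and 5886 and 1428 (4.12-fold), and RPL18B had 1512 and 817.5 (1.85-fold) and 6823 and 1831 (3.73-fold). RPL14B was the only gene whose probe sets lay on opposite sides of a ratio of 1, with 1567 and 2508 for the plain one and 6093 and 4917 for the _s_at one. In 13 pairs a plain probe set of each gene and an _s_at probe set were measured. The _s_at ratio lay between the ratios of the partners in 6 and below both in 7. With plain probe sets alone, 24 of 49 pairs were more than 2-fold apart. A further 9 genes (RPL1B, RPL4A, RPL7A, RPL35A, RPL41A, RPL42B, RPS4B, RPS6B and RPS30A) were measured by an _s_at probe set alone. These values may hold both genes of the pair, also that of RPL4A, the only one whose partner had a probe set.

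Median ratios were lower among the shortest genes, although none of the 7 genes with a ratio under 1 was among them. Among the ribosomal protein genes the length of the gene in the annotation (78 to 1662 bases, median 771) and the log2 ratio had a Spearman's rho of 0.34 across the 127 genes, and across all 5449 genes the rho was 0.19. The median log2 ratio was 0.68 for the 7 ribosomal protein genes of up to 300 bases and −1.25 for the 236 other genes of that length. It was 1.76 for the 66 ribosomal protein genes of 701 to 1000 bases and −0.18 for the 822 other genes. In each of 6 length bins the ribosomal protein genes had the higher median, although 4 of the bins held fewer than 20 of them. The bins were set after the values were seen, gene lengths include introns, and the part of length in the ratios was not tested. RPL41A, the shortest gene, had 87.0 and 54.8, both under background.

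**Figure D5:**
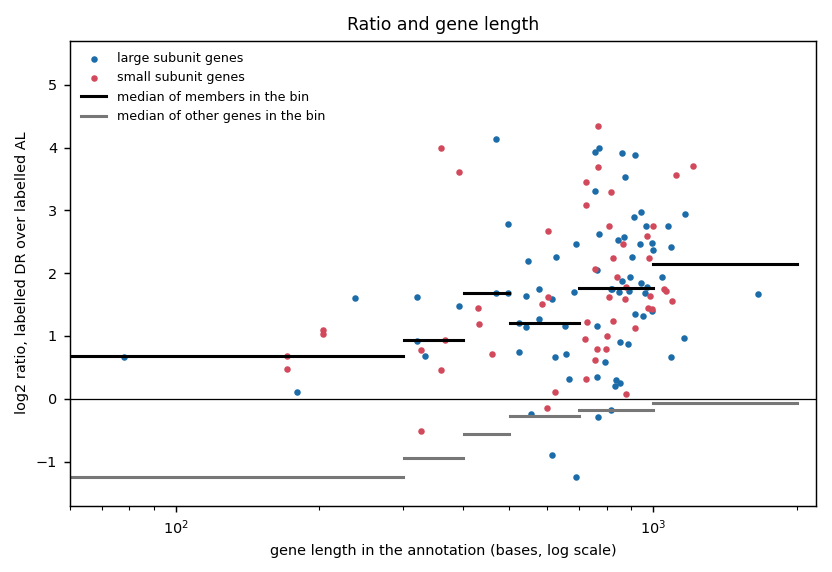
Log2 ratio of signals (labelled DR over labelled AL) against gene length in bases (log scale) for the 127 ribosomal protein genes, with the median of these genes (black) and of all other genes (grey) in 6 length bins. Both medians are lowest in genes of up to 300 bases (0.68 and −1.25) and highest in genes of 1001 to 2000 bases (2.15 and −0.07).

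The factors that control ribosomal protein genes lay close to all genes. Of 10 regulators, 1 was over 2-fold higher on the DR-labelled array, where 20.5% of all genes were, and 3 on the AL-labelled array, where 24.3% of all genes were, with a median log2 ratio of −0.16 beside −0.12. SFP1, an activator, had 586.0 on the DR-labelled array and 2628 on the AL-labelled array (4.48-fold higher on the AL-labelled array). CRF1, a corepressor that displaces Ifh1, had 42.3 and 128.2, both under background. IFH1, the coactivator, had 154.6 and 377.8 (2.44-fold). The DNA-binding factors were nearly level, RAP1 with 530.2 and 593.5 and FHL1, under background on the AL-labelled array, with 190.9 and 191.8. HMO1, a high mobility group protein at these promoters, had 3533 and 3473. MRS6, which binds Sfp1, was the gene past 2-fold on the DR-labelled array with 1352 and 565.0 (2.39-fold).

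Proteins that escort single ribosomal proteins to the nascent subunits, together with methyltransferases that modify them, were mixed. Of 14 genes, 6 were over 2-fold higher on the DR-labelled array and 1 on the AL-labelled array (median 0.35). The shares of all genes were 20.5% and 24.3%. The 6 genes past 2-fold on the DR-labelled array all had a signal under background on the AL-labelled array. With signals raised to background, a choice added after the values were seen, 2 of the 14 were over 2-fold higher on the DR-labelled array and 2 on the AL-labelled array (median 0.05), beside 14.1% and 32.1% of all genes. Background was higher on the AL-labelled array, so a gene under it on both arrays took a ratio of 0.46. Such a gene was counted as over 2-fold higher on the AL-labelled array by construction. SYO1 and 566 of all 5449 genes were counted in this way. RRB1, the escort of Rpl3, had 1204 and 139.1 (8.66-fold, or 4.28-fold with the second value raised to background). SYO1, the escort of Rpl5 and Rpl11, had 92.3 and 22.7, both under background. The other 4 were TSR2, TSR4, FAP7 and RKM1, of which RKM1 alone stayed past 2-fold (2.08-fold) with its signal raised. BCP1, the escort of Rpl23, stood the other way at 506.2 and 1626 (3.21-fold higher on the AL-labelled array), and the methyltransferase RKM5 had 234.2 and 381.3. The genes of the escorted proteins named here were higher on the DR-labelled array, as were 120 of the 127 ribosomal protein genes. RPL5, RPL11A and RPL23A were past 2-fold (3.84-fold, 2.31-fold and 2.54-fold). RPL3, RPL11B and RPL23B lay within 2-fold (1.95-fold, 1.67-fold and 1.83-fold).

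Proteins that sit on the assembled ribosome had a median close to that of the ribosomal proteins. Of 16 genes, 11 were over 2-fold higher on the DR-labelled array and 1 on the AL-labelled array. The shares of all genes were 20.5% and 24.3%. The median log2 ratio of the 16 was 1.65, beside 1.63 for the ribosomal proteins. With signals raised to background, a choice added after the values were seen, 10 and 2 of the 16 were past 2-fold on these arrays. The shares of all genes were then 14.1% and 32.1%. The latter share includes the 566 genes under background on both arrays, and 0 of the 16 were such genes. SSB1 and SSB2, chaperones of the nascent chain, had 8469 and 1583 (5.35-fold) and 7918 and 1447 (5.47-fold). ASC1, which belongs to the small subunit although its symbol lies outside the rule, had 7817 and 2335 (3.35-fold), and STM1, which clamps idle ribosomes, had 7195 and 1532 (4.70-fold). EGD1, a subunit of the nascent chain associated complex, was level with 4717 and 4637. TMA46, a ribosome-associated protein, had 329.0 and 1144 (3.48-fold higher on the AL-labelled array), and TMA7 had 140.3 and 238.5, the second value being under background.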

How the data were processed

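The deposited signals of 10928 probe sets on 2 arrays are intensities on a linear scale, which a service laboratory had normalized for the authors by Affymetrix's statistical algorithms. The algorithm version, its target level and any scaling are settings not given in the sources that were read. One gene symbol was annotated to 7244 of the probe sets, several to 1 and none to 3683. Through their gene identifiers 5498 matched an S. cerevisiae gene of the RefSeq table (assembly R64). Signals of several probe sets for one gene were averaged as log2 values (signals under 0.1 set to 0.1), and ratios of the DR-labelled array over the AL-labelled array were counted above 2-fold, as in the study's methods. The groups of arrays come from the sample titles. The number of arrays limits the precision.

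Genes named with values are the 8 highest and 8 lowest ratios, genes past 2-fold on the AL-labelled array or under background, both genes of pairs over 2-fold apart and of the 4 closest pairs, single-copy, stalk and ubiquitin-fusion genes, genes whose probe sets were over 2-fold apart, and 2 genes from each end of 3 further lists. RPL5, RPL30, RAP1, FHL1, IFH1, ASC1, STM1, EGD1, TSR2, TSR4, FAP7, RKM1 and further single-copy and escorted genes fall outside this rule and were named once their values had been seen. The members and lists were chosen with earlier results of these data known. Some genes that count in the totals are not reported here by name. No sequences were printed because no sequence table was used here, so a planned search of promoters for motifs was not run.

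Alternatives were median centring, quantile normalization, removal of the trend on mean signal (lowess, span 0.3), centring on hybridization controls, low signals raised to background, omission of genes below it on both arrays, addition of the median background signal, the brightest probe set, leaving out _s_at and _x_at probe sets, and thresholds of 1.5-fold and 3-fold. The counting was tested on simulated data. Python 3.11.15 with numpy 2.4.6, pandas 2.3.3, scipy 1.17.1, statsmodels 0.14.6 and matplotlib 3.10.9 was used.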

Additional observations from a re-analysis of the deposited data

How the results depend on the processing

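The median log2 ratio of the ribosomal protein genes (1.63) was 1.74 after median centring, 1.56 with quantile normalization, 1.498 without the trend on signal, 1.78 after centring on the hybridization controls, 1.62 with signals raised to background, 1.59 with the background signal added, 1.60 with the brightest probe set and 1.65 without _s_at and _x_at probe sets. The large minus small subunit difference (0.15) was 0.14 with quantile normalization, 0.10 without the trend, 0.20 with signals raised to background, 0.19 with the background signal added, 0.24 with the brightest probe set and 0.26 without _s_at and _x_at probe sets. The count of genes over 2-fold higher on the AL-labelled array (1) was 0 after removal of the trend, 2 with signals raised to background (RPL41A being the second, since background is higher on the AL-labelled array), 2 at 1.5-fold and 0 at 3-fold. Pairs more than 3-fold apart numbered 11. Over the 9 alternatives other than thresholds, genes over 2-fold higher on the DR-labelled array numbered 85 to 96, and pairs more than 2-fold apart 23 to 26. The count of 85 was out of the 118 genes left without _s_at and _x_at probe sets, where 24 of 49 pairs were apart. The log2 ratio of SYO1 became −1.12 with its 2 signals, both under background, raised to it. No paired analysis was possible because each condition has 1 array, and no replicate could be left out.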

Other observations

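The array also carries probe sets for fission yeast, and 14 of them are named for a ribosomal protein gene of that species. Their signals reached at most 13.8 on the DR-labelled array and 11.0 on the AL-labelled array, with medians of 2.55 and 1.75. The lowest signals of budding yeast ribosomal protein genes on the DR-labelled array were 87.0 (RPL41A) and 385.4 (RPL22B). Control probe sets for one ribosomal RNA differed widely from each other in their ratios. For the RNA of the large subunit, the probe set from the middle had 7786 on the DR-labelled array and 207.9, under background, on the AL-labelled array, the one from the 3′ end had 8818 and 5040, and the one from the 5′ end had 85.4 and 94.1, both under background. Another probe set for this RNA, 25srRnaa, had 1020 and 8500 and was the only one of the 17 over 2-fold higher on the AL-labelled array (log2 ratio −3.06). For the RNA of the small subunit, the middle had 4160 and 1205, the 3′ end had 1419 and 76.4, the latter under background, and the 5′ end had 6443 and 7809.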
